A study of Schizosaccharomyces pombe with 15 samples.

Results

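The genes described here are 10 components of the heterochromatin and RNA interference (RNAi) machinery of the fission yeast Schizosaccharomyces pombe, out of 5886 genes with deposited counts. They were chosen by name and function and not by a measured value, although earlier results of these data were known. They are clr4 (SPBC428.08c), swi6 (SPAC664.01c), epe1 (SPCC622.16c), clr3 (SPBC800.03), sir2 (SPBC16D10.07c), chp1 (SPAC18G6.02c), tas3 (SPBC83.03c), ago1 (SPCC736.11), dcr1 (SPCC188.13c) and rdp1 (SPAC6F12.09). The study profiled wild-type cells of strain h-S 972 by CAGE (cap analysis of gene expression), a method that reads the first bases of capped RNA, so that each tag marks a transcription start site. All 15 libraries carried the genotype wt, and no mutant of the machinery was profiled. Nitrogen-starved cells had spent 16 h at 30 °C in EMM, a defined minimal medium, lacking ammonium chloride, and their comparison group was unstressed EMM cells at 30 °C. Heat-shocked cells had spent 15 min at 39 °C. Peroxide-stressed cells had received 0.5 mM H2O2 for 15 min at 30 °C. Their comparison group was unstressed cells in YES, a rich yeast-extract medium, at 30 °C. The labels give the medium of both short stresses as YES in one field and as YEL in another. Each of the 5 groups held 3 libraries, from triplicate liquid cultures per the labels.

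Heterochromatin in this yeast packs the centromeric repeats, the silent mating-type region and the chromosome ends. The methyltransferase Clr4 marks histone H3 there, the HP1 protein Swi6 and the chromodomain protein Chp1 bind the mark, the deacetylases Clr3 and Sir2 remove acetyl groups, and the JmjC-domain protein Epe1 limits spreading. Rdp1 makes double-stranded RNA from repeat transcripts, Dcr1 cuts it into small RNAs, and Ago1 carries these together with Chp1 and Tas3 in the RITS complex, which brings Clr4 to the repeats.

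A level below is in CPM, tags per 1000000 tags, computed from the deposited counts after library totals were scaled by TMM, an edgeR method that centres most genes. CAGE gives 1 tag per capped 5′ end, so a level does not grow with transcript length, and levels were compared between genes on that scale of tags per 5′ end. Library totals ran from 9665353 to 21760682 tags, so that 3 tags, taken as the floor, stood for 0.115 to 0.346 CPM. Replicates correlated at r of 0.968 to 0.994 on log2 CPM across genes. Genes were called at an adjusted p under 0.05 in edgeR's quasi-likelihood test, adjusted by Benjamini-Hochberg over all genes. In these bulk cultures, fewer cells using a gene and fewer transcripts per cell cannot be told apart.

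The 10 genes used 21 start-site clusters, and 8 genes used more than 1. The main clusters peaked exactly at the annotated mRNA start in 8 of the 10 genes, 6 bp before it in tas3 and 1 bp after it in rdp1; the annotation may itself draw on start-site data. A pyrimidine-purine step, the usual pair of bases at a start, stood at 19 of the 21 peaks. The main sites of the 4 genes called in nitrogen starvation and the 2 called in heat are shown first, as the most used start of each called gene. Each sequence runs 5′ to 3′ from 50 bases before the peak to 10 bases from it on, with the bases at −1 and +1 in capitals, read from RefSeq's ASM294v3 at the positions of the deposited clusters.
swi6, chrI:1704089-1704148, minus strand: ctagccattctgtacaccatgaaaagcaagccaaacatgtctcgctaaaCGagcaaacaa
clr3, chrII:254636-254695, plus strand: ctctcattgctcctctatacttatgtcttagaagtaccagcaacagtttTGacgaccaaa
dcr1, chrIII:1510548-1510607, minus strand: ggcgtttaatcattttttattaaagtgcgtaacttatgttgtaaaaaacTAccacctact
rdp1, chrI:1324892-1324951, plus strand: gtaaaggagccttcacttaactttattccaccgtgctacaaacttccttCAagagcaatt
sir2, chrII:3611677-3611736, minus strand: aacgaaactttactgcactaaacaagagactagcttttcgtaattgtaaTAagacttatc
tas3, chrII:1516176-1516235, minus strand: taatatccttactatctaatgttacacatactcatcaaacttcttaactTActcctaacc

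The main sites of the other 3 genes whose start-site choice or antisense start sites are described, clr4, epe1 and chp1, follow with the secondary sites that changed. A secondary site is named by its distance in bp from the main site, negative when it lies upstream.
clr4 main, chrII:458401-458460, minus strand: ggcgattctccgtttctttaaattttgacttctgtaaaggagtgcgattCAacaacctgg
clr4 +593, chrII:457808-457867, minus strand: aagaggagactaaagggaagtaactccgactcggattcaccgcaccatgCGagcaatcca
epe1 main, chrIII:1435032-1435091, minus strand: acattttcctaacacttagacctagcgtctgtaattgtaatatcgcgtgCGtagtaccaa
epe1 +2913, chrIII:1432119-1432178, minus strand: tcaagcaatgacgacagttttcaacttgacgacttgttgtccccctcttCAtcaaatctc
epe1 +3032, chrIII:1432000-1432059, minus strand: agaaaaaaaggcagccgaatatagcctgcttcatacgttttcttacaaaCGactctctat
chp1 main, chrI:2214336-2214395, minus strand: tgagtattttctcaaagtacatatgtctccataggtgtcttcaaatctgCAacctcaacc
chp1 +513, chrI:2213823-2213882, minus strand: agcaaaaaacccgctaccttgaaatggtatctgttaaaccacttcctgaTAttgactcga
tas3 −414, chrII:1516590-1516649, minus strand: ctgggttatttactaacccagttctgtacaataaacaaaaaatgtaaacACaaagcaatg
tas3 +380, chrII:1515796-1515855, minus strand: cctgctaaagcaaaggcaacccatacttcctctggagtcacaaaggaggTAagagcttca
swi6 +576, chrI:1703513-1703572, minus strand: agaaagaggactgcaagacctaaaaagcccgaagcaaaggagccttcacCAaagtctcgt
rdp1 −312, chrI:1324580-1324639, plus strand: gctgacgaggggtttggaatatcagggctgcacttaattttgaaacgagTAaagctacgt
rdp1 +386, chrI:1325278-1325337, plus strand: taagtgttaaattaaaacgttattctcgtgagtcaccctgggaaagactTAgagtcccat

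All 10 genes had tags in each of the 15 libraries. In YES the HP1 gene swi6 was the highest of the 10 at 100.8 ± 4.2 CPM, followed by the RNA-dependent RNA polymerase gene rdp1 at 68.8 ± 10.1 CPM and the Argonaute gene ago1 at 52.8 ± 5.3 CPM (SD, n = 3 in each group throughout). The deacetylase gene sir2 stood at 37.3 ± 1.5 CPM, while clr3, tas3 and clr4 lay close together at 24.3 ± 0.5, 23.6 ± 2.1 and 20.3 ± 0.2 CPM. The Dicer gene dcr1, at 11.6 ± 1.5 CPM, chp1, at 8.99 ± 0.84 CPM, and epe1, at 8.70 ± 2.55 CPM, were the lowest. The rdp1 and ago1 levels were thus higher than those of their partners dcr1 and chp1 on the scale of tags per 5′ end.

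**Figure D1:**
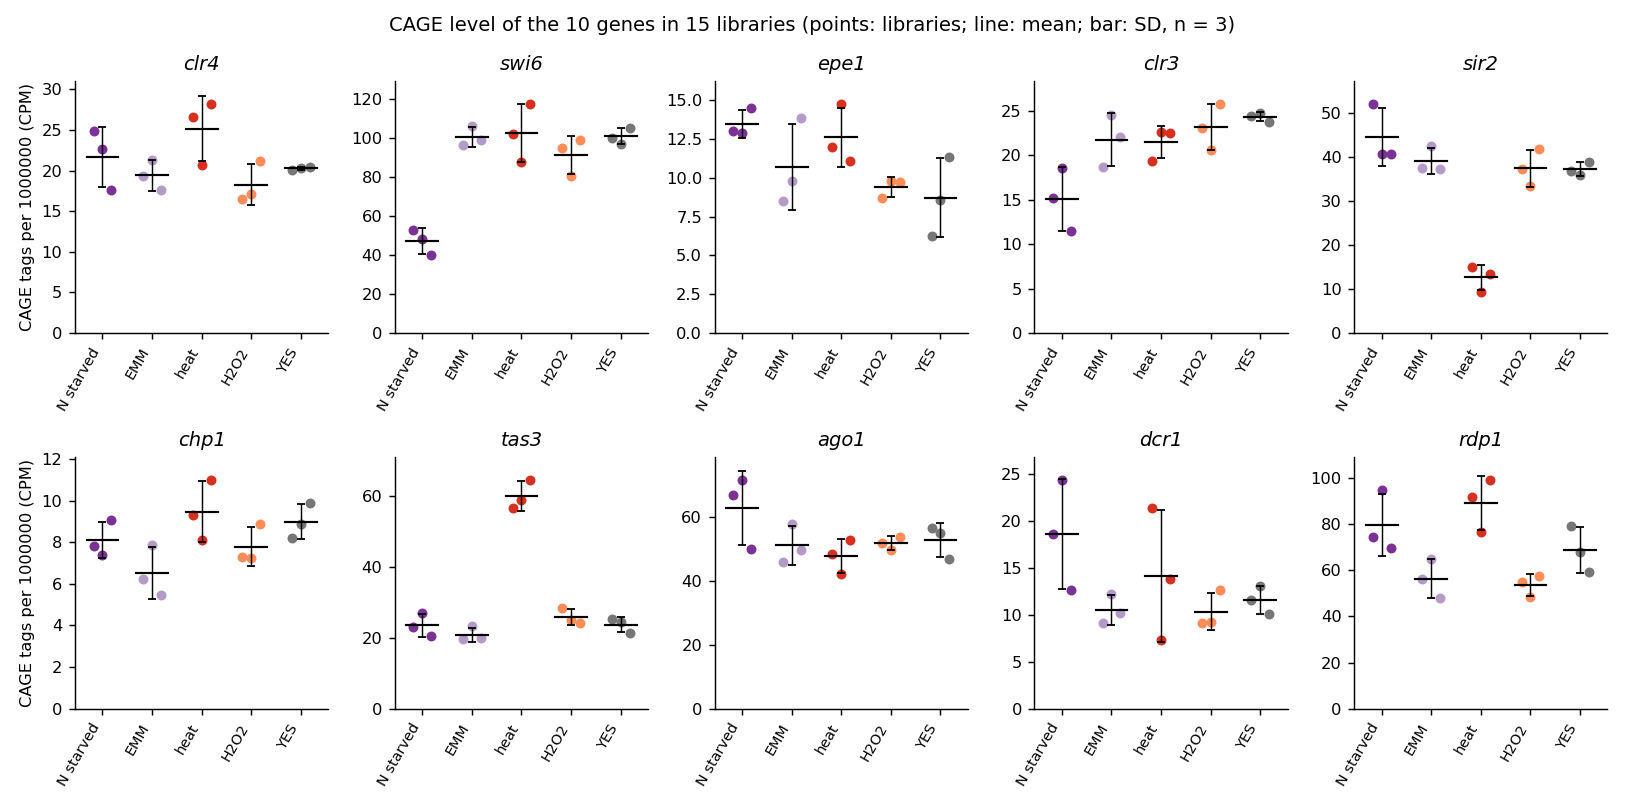
Level of each gene in CPM (vertical axis, from 0) in the 3 libraries of each of the 5 groups (points), with the mean (line) and SD (bar). The nitrogen-starved swi6 libraries sit at 39.9 to 52.9 CPM below all others, the heat sir2 libraries at 9.37 to 15.0 CPM below all others, and the heat tas3 libraries at 56.5 to 64.5 CPM above all others.

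For each gene the 5 groups were ordered by mean, and the libraries of neighbouring groups were compared. Neighbours did not overlap for swi6 and clr3 in nitrogen starvation, each below the next group. They also did not overlap for sir2 in heat, below the next group, and tas3 in heat, above the next group. All other neighbours overlapped. How often such gaps occur over all genes was not computed. For clr4 the order was heat at 25.2 ± 4.0, nitrogen starvation at 21.7 ± 3.7, YES at 20.3 ± 0.2, EMM at 19.4 ± 1.9 and H2O2 at 18.3 ± 2.5 CPM, with every neighbour overlapping. For ago1 it was nitrogen starvation at 62.8 ± 11.5, YES at 52.8 ± 5.3, H2O2 at 51.8 ± 2.1, EMM at 51.2 ± 6.1 and heat at 47.7 ± 5.4 CPM, again with overlap throughout. For chp1 it was heat at 9.47 ± 1.46, YES at 8.99 ± 0.84, nitrogen starvation at 8.10 ± 0.87, H2O2 at 7.79 ± 0.93 and EMM at 6.52 ± 1.23 CPM. For epe1 it was nitrogen starvation at 13.5 ± 0.9, heat at 12.6 ± 1.9, EMM at 10.7 ± 2.8, H2O2 at 9.41 ± 0.63 and YES at 8.70 ± 2.55 CPM. Neighbours of chp1 and epe1 also overlapped throughout.

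Nitrogen starvation against EMM asked how the machinery stands after 16 h without a nitrogen source. The heterochromatin protein gene swi6 fell 2.14-fold and the deacetylase gene clr3 fell by 0.54 on the log2 scale, while dcr1 and rdp1, which act in making small RNAs, rose. These were 4 of the 10 genes, 2 in each direction, against 68.6% of all genes called in this comparison; by library totals alone 9 of the 10 were called, against 69.3% of all genes. The median log2 change was 0.24 over the 10 genes and 0.04 over all genes.

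The swi6 level was 52.9, 48.2 and 39.9 CPM in nitrogen-starved libraries, against 96.4, 106.0 and 98.9 CPM in EMM libraries. No nitrogen-starved library reached the lowest EMM library, and the log2 change was −1.09 (SE 0.13, adjusted p = 4.35e-06), a 2.14-fold lower level. The call was lost when a minimum log2 change of 1 was required (adjusted p = 0.293) and held under the other alternatives, with a log2 change between −1.17 and −0.64. The clr3 level was 15.2, 18.6 and 11.4 CPM in nitrogen-starved libraries, against 18.7, 24.6 and 22.0 CPM in EMM libraries. The highest nitrogen-starved library lay just under the lowest EMM library, and the log2 change was −0.54 (SE 0.16, adjusted p = 0.00884). Clr3 is the catalytic subunit of the SHREC deacetylase complex.

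The dcr1 level was 18.7, 24.4 and 12.7 CPM in nitrogen-starved libraries, against 9.08, 12.2 and 10.2 CPM in EMM libraries. The lowest nitrogen-starved library lay just above the highest EMM library, and the log2 change was 0.82 (SE 0.31, adjusted p = 0.0279). With CPM scaled on cluster totals these libraries stood at 12.79 and 12.82 CPM, so that the groups overlapped. The rdp1 level was 74.3, 94.7 and 69.7 CPM in nitrogen-starved libraries, against 56.3, 64.7 and 48.1 CPM in EMM libraries. All nitrogen-starved libraries were higher, and the log2 change was 0.50 (SE 0.16, adjusted p = 0.0116). The third RNAi gene, ago1, was at 67.0, 71.7 and 49.8 CPM in nitrogen-starved libraries and at 46.0, 57.9 and 49.7 CPM in EMM libraries, which overlapped, and did not pass (log2 change 0.29, SE 0.15, adjusted p = 0.0830). Limma on the deposited log2 values called ago1 (adjusted p = 0.0107). Over all alternatives but a minimum change its adjusted p ran from 0.000189 to 0.239.

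The other 5 genes did not pass the test, with log2 changes of 0.16 for clr4, 0.17 for tas3, 0.19 for sir2, 0.32 for chp1 and 0.33 for epe1. The clr3 call was lost without nitrogen-starved library 3 (adjusted p = 0.0525), the rdp1 call without EMM library 3 (adjusted p = 0.0614), and the dcr1 call without EMM library 1, EMM library 3 or nitrogen-starved library 2 and with limma (adjusted p up to 0.143); over all alternatives but a minimum change the adjusted p ran from 0.00196 to 0.655 for clr3, from 2.75e-05 to 0.0614 for rdp1 and from 0.00260 to 0.143 for dcr1. TMM factors were 1.27 to 1.33 in nitrogen-starved libraries and 0.929 to 0.972 in EMM libraries, and scaling by library totals alone moved the median of all genes to a log2 change of 0.49. Of the 9 genes called on that scale, swi6 was lower (log2 change −0.64), 8 were higher by 0.61 to 1.26, and clr3 was not called (log2 change −0.09, adjusted p = 0.655). Both swi6 and clr3 were below that median.

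**Figure D2:**
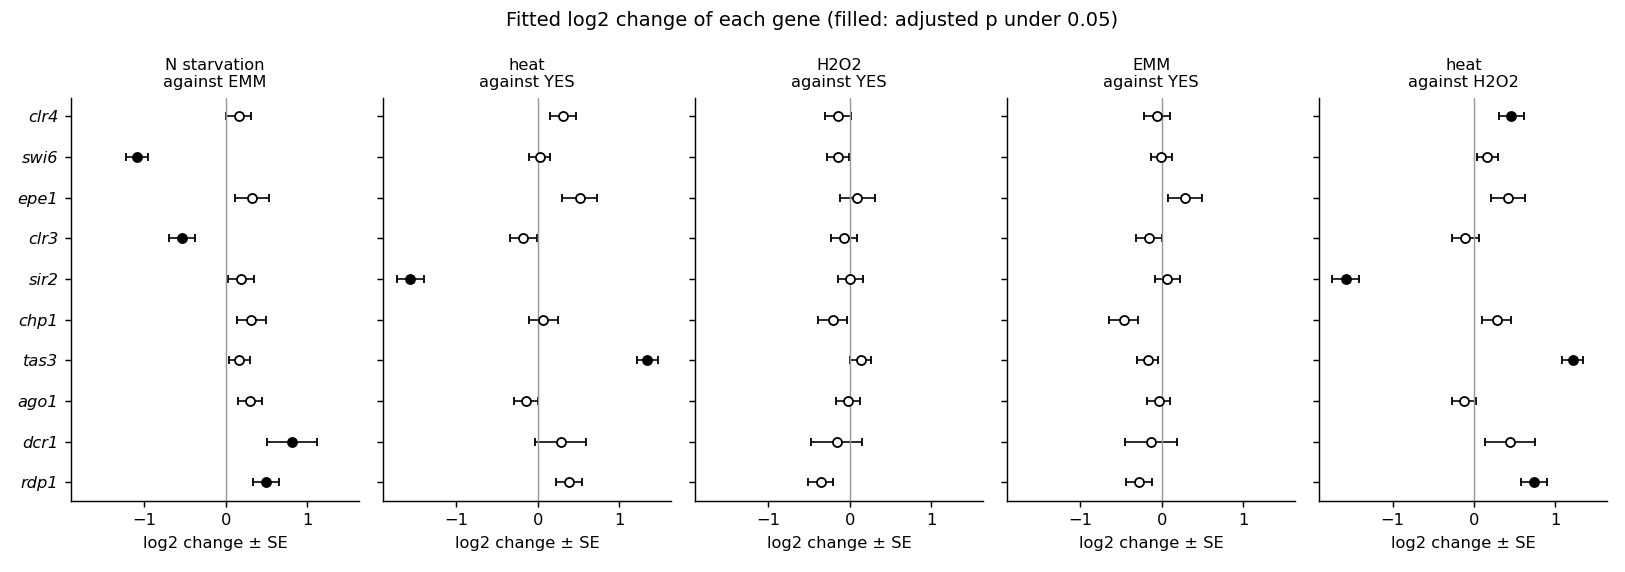
Fitted log2 change (horizontal axis, with its SE) of the 10 genes in each of the 5 comparisons, filled where the adjusted p was under 0.05. Nitrogen starvation has 4 filled points, heat against YES 2, heat against H2O2 4, and the H2O2 and EMM comparisons with YES none.

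In heat shock against YES, sir2, the NAD-dependent deacetylase gene, fell, and tas3, the gene of the RITS linker protein that joins Ago1 to Chp1, rose. These were the 2 called genes among the 10, against 42.3% of all genes called in heat against YES. The sir2 level was 15.0, 9.37 and 13.5 CPM in heat libraries, against 36.8, 36.0 and 39.0 CPM in YES libraries. No heat library came near a YES library, and the log2 change was −1.57 (SE 0.17, adjusted p = 2.03e-06), a 2.96-fold lower level. The tas3 level was 56.5, 58.7 and 64.5 CPM in heat libraries, against 25.2, 24.5 and 21.2 CPM in YES libraries. The groups were far apart, and the log2 change was 1.35 (SE 0.13, adjusted p = 9.12e-07), a 2.54-fold higher level. Both calls kept their direction and passed under every alternative, with log2 changes of −1.75 to −1.39 for sir2 and of 1.17 to 1.39 for tas3. By library totals alone, which moved the median of all genes to a log2 change of −0.21, sir2 was at −1.75 and tas3 at 1.17.

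The partners of tas3 in RITS did not pass in heat: ago1 was at 48.3, 42.1 and 52.8 CPM in heat libraries and at 56.6, 55.0 and 46.7 CPM in YES libraries (log2 change −0.14, adjusted p = 0.471), and chp1 was at 9.29, 8.11 and 11.0 CPM in heat libraries and at 8.19, 8.90 and 9.87 CPM in YES libraries (log2 change 0.07, adjusted p = 0.787). The dcr1 level spread most in heat, at 21.4, 7.27 and 13.8 CPM in heat libraries against 11.5, 13.1 and 10.1 CPM in YES libraries (adjusted p = 0.511). The epe1 level was 12, 14.8 and 11.1 CPM in heat libraries against 6.23, 8.54 and 11.3 CPM in YES libraries, with a log2 change of 0.51 (SE 0.21, adjusted p = 0.0666). In edgeR's test of single start sites, the main epe1 site was not called (log2 change −0.19, adjusted p = 0.577). The internal +3032 site of epe1 rose (log2 change 5.60, adjusted p = 8.32e-09). The rdp1 level was 92.0, 76.5 and 99.3 CPM in heat libraries against 79.3, 67.8 and 59.2 CPM in YES libraries, with a log2 change of 0.38 (SE 0.16, adjusted p = 0.0678). Both lay near the threshold; limma on the deposited log2 values called them (adjusted p = 0.0182 for epe1 and 0.0409 for rdp1), and over the alternatives the adjusted p ran from 0.0162 to 0.306 for epe1 and from 0.0383 to 0.255 for rdp1. The clr4, swi6 and clr3 genes had log2 changes of 0.31, 0.02 and −0.18 and did not pass.

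H2O2 against YES gave no called gene among the 10, against 20.0% of all genes, with edgeR, and none with DESeq2 or limma. At an unadjusted p under 0.05 there was 1, against 30.4% of all genes, which was rdp1, at 54.9, 48.2 and 57.4 CPM in H2O2 libraries against 79.3, 67.8 and 59.2 CPM in YES libraries (log2 change −0.36, SE 0.16, adjusted p = 0.137). These rdp1 libraries did not overlap. The other 9 genes had log2 changes between −0.21 for chp1 and 0.13 for tas3. EMM against YES, which compared the media without stress, also gave none by edgeR, DESeq2 or limma, against 13.2% of all genes. Here chp1 alone of the 10 had an unadjusted p under 0.05, against 24.6% of all genes, at 6.22, 7.88 and 5.47 CPM in EMM libraries against 8.19, 8.90 and 9.87 CPM in YES libraries (log2 change −0.47, SE 0.18, adjusted p = 0.105). The heat and H2O2 comparisons share the YES libraries, and the EMM libraries serve both nitrogen starvation and the media comparison.

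Set directly against each other, the short stresses differed in 4 of the 10 genes, against 27.7% of all genes in heat against H2O2. Heat libraries had less sir2, at 15.0, 9.37 and 13.5 CPM, than H2O2 libraries, at 37.2, 33.4 and 41.8 CPM (log2 change −1.57, SE 0.17, adjusted p = 3.08e-06). They had more tas3, at 56.5, 58.7 and 64.5 CPM, than H2O2 libraries, at 28.5, 25.0 and 24.2 CPM (log2 change 1.21, SE 0.13, adjusted p = 3.88e-06). The rdp1 level, given above for both groups, was also higher in heat, with no overlap (log2 change 0.74, SE 0.16, adjusted p = 0.00258). The methyltransferase gene clr4 was at 26.6, 20.7 and 28.2 CPM in heat libraries and at 16.5, 17.2 and 21.1 CPM in H2O2 libraries, which overlapped (log2 change 0.46, SE 0.16, adjusted p = 0.0404). That call was lost when either of 2 heat libraries or either of 2 H2O2 libraries was left out, by library totals alone, with only the groups compared in the fit (adjusted p = 0.0811) and with a minimum log2 change of 1. Over the alternatives other than that minimum its adjusted p ran from 0.0154 to 0.236.

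The difference between responses was tested in the same fit. The nitrogen starvation effect differed from the heat effect in 3 of the 10 genes, swi6, sir2 and tas3, against 57.0% of all genes, and from the H2O2 effect in 2, swi6 and rdp1, against 54.4% of all genes. The largest was sir2, whose log2 change was 0.19 in nitrogen starvation and −1.57 in heat, a difference of 1.75 (SE 0.23, adjusted p = 1.41e-05). For clr4, epe1, clr3, chp1, ago1 and dcr1 neither difference passed.

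Start-site clusters were tested one by one, adjusted over 13003 clusters, with CPM scaled on cluster totals. In nitrogen starvation 11 of the 21 clusters of the 10 genes were called, against 66.9% of all clusters, in heat against YES 5 (33.6%), in H2O2 against YES 1 (15.4%), in EMM against YES 3 (13.7%) and in heat against H2O2 7 (25.3%). Whether the share of a gene's tags at each site changed was tested in the 1693 genes with at least 2 sites of 10% or more in a group, which took in 5 of the 10: clr4, epe1, chp1, tas3 and rdp1. Site usage was called in nitrogen starvation for tas3 and clr4, against 59.4% of the genes tested, in heat against YES for tas3 and epe1 (31.7%), in H2O2 against YES for tas3 (12%), in EMM against YES for epe1 and chp1 (18.4%) and in heat against H2O2 for epe1 and tas3 (30.3%). For rdp1 no comparison passed. That test took in its main and −312 sites. The +386 site of rdp1 held less than 10% of the tags in each group and was left out.

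The tas3 gene had 3 sites: the main one, with its peak 57 bp before the start codon, one at −414 bp, and one at +380 bp inside the coding sequence. The main cluster, chrII:1515918-1516280, is 363 bp wide and spans the start codon, which begins at position 1516128. Its values are summed over that width, so some of its tags may start inside the coding sequence. The −414 site fell in all 3 stresses, and the main site rose in heat and in nitrogen starvation. In heat libraries the −414 site had 0.10, 0.75 and 0.27 CPM, against 2.85, 2.65 and 2.10 CPM in YES libraries (log2 change −2.63, SE 0.42, adjusted p = 6.05e-05). These were 1, 11 and 4 tags in heat libraries and 25, 30 and 41 tags in YES libraries. The first heat value lay below the floor of 3 tags. The main site had 53.5, 53.2 and 59.8 CPM in heat libraries, against 18.4, 18.7 and 16.5 CPM in YES libraries (log2 change 1.64, SE 0.15, adjusted p = 5.28e-08). Its share of the gene's tags was 94.3 ± 1.2% in heat and 76.4 ± 2.3% in YES, and the share of the −414 site was 0.638 ± 0.597% in heat and 10.8 ± 0.7% in YES (usage adjusted p = 3.53e-12).

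The same site moved in H2O2 libraries, where the tas3 level itself was not called. It had 0.86, 0.77 and 0.87 CPM in H2O2 libraries, against 2.85, 2.65 and 2.10 CPM in YES libraries (log2 change −1.58, SE 0.35, adjusted p = 0.00335), and its share was 3.31 ± 0.30% in H2O2 and 10.8 ± 0.7% in YES (usage adjusted p = 0.000197). In nitrogen starvation it had 0.71, 0.98 and 0.62 CPM, against 2.11, 3.36 and 1.99 CPM in EMM (log2 change −1.71, SE 0.34, adjusted p = 0.000225). The +380 site fell as well, to 0.98, 0.64 and 1.01 CPM in nitrogen-starved libraries, against 1.90, 2.75 and 2.20 CPM in EMM libraries (log2 change −1.35, adjusted p = 0.000143), and the main site rose slightly (log2 change 0.39, SE 0.14, adjusted p = 0.0229). The main site then held 92.9 ± 1.0% of the tags in nitrogen starvation and 78.0 ± 2.8% in EMM (usage adjusted p = 1.70e-06). Heat and H2O2 share the YES libraries in these values.

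**Figure D3:**
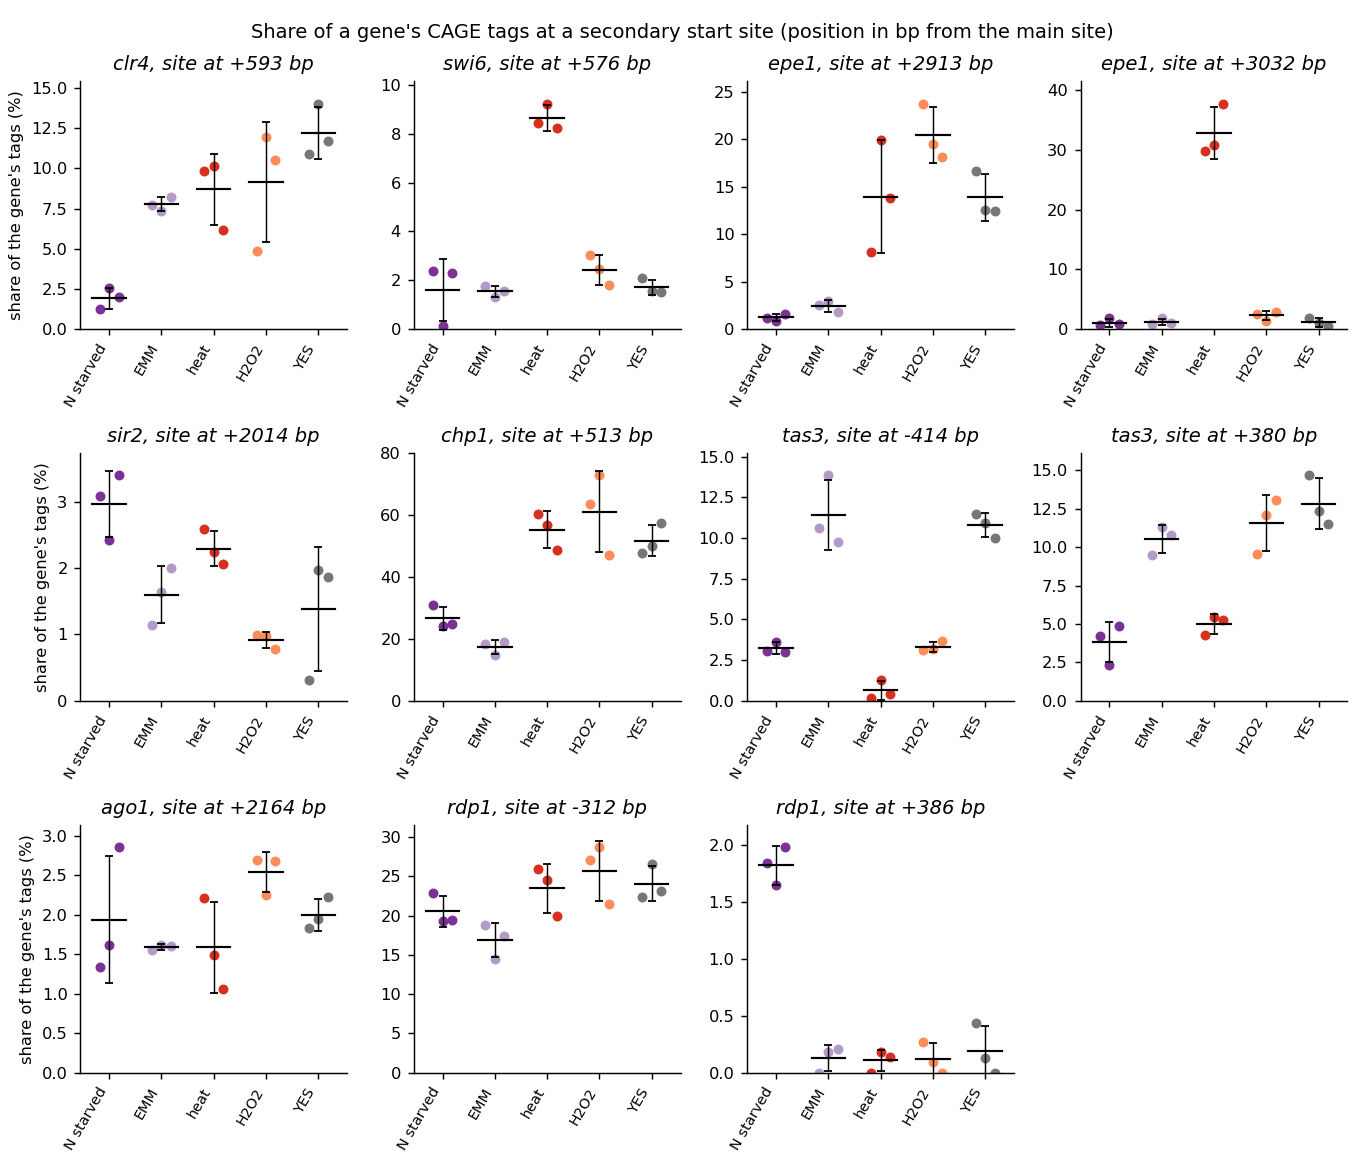
Share of a gene's tags, in percent (vertical axis, from 0), at the 11 secondary sites in the 3 libraries of each group (points), with mean and SD. The tas3 −414 site is low in all 3 stressed groups, the epe1 +3032 and swi6 +576 sites are high in heat, and the chp1 +513 site is low in EMM and in nitrogen starvation.

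The epe1 gene showed a start site used mainly in heat. The +3032 site lies in the coding exon, 2536 bp after the start codon, and had 3.55, 4.42 and 4.11 CPM in heat libraries, which were 37, 65 and 60 tags, against 1 tag in each YES library. The ratio of summed tags was 54.2 (95% exact interval 18.2 to 266, counting error only), and the fitted log2 change was 5.60 (SE 0.43, adjusted p = 8.32e-09). H2O2 libraries had 3, 3 and 6 tags there, so heat also stood above H2O2 (log2 change 4.24, SE 0.34, adjusted p = 1.52e-08). The main epe1 site had 7.38, 7.07 and 5.28 CPM in heat libraries and 5.02, 7.34 and 9.74 CPM in YES libraries, which overlapped. The +3032 site held 32.8 ± 4.3% of epe1 tags in heat, against 1.12 ± 0.70% in YES (usage adjusted p = 6.74e-11). A transcript from it starts past most of the coding sequence. Further downstream on the same strand, inside the epe1 transcript, lie clusters counted to the neighbouring gene SPCC622.15c, the nearest at chrIII:1431581-1431673. The tags at +3032 (chrIII:1431779-1432057) are counted to epe1, and whether their transcripts also belong to SPCC622.15c was not tested.

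The other internal epe1 site, at +2913, followed the medium. It had 0.22, 0.31 and 0.26 CPM in EMM libraries, against 1.03, 1.06 and 1.38 CPM in YES libraries (log2 change −2.15, SE 0.44, adjusted p = 0.00178). Its share was 2.43 ± 0.59% in EMM and 13.8 ± 2.4% in YES (usage adjusted p = 2.11e-05), and it was 1.23 ± 0.35% in nitrogen starvation.

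**Figure D4:**
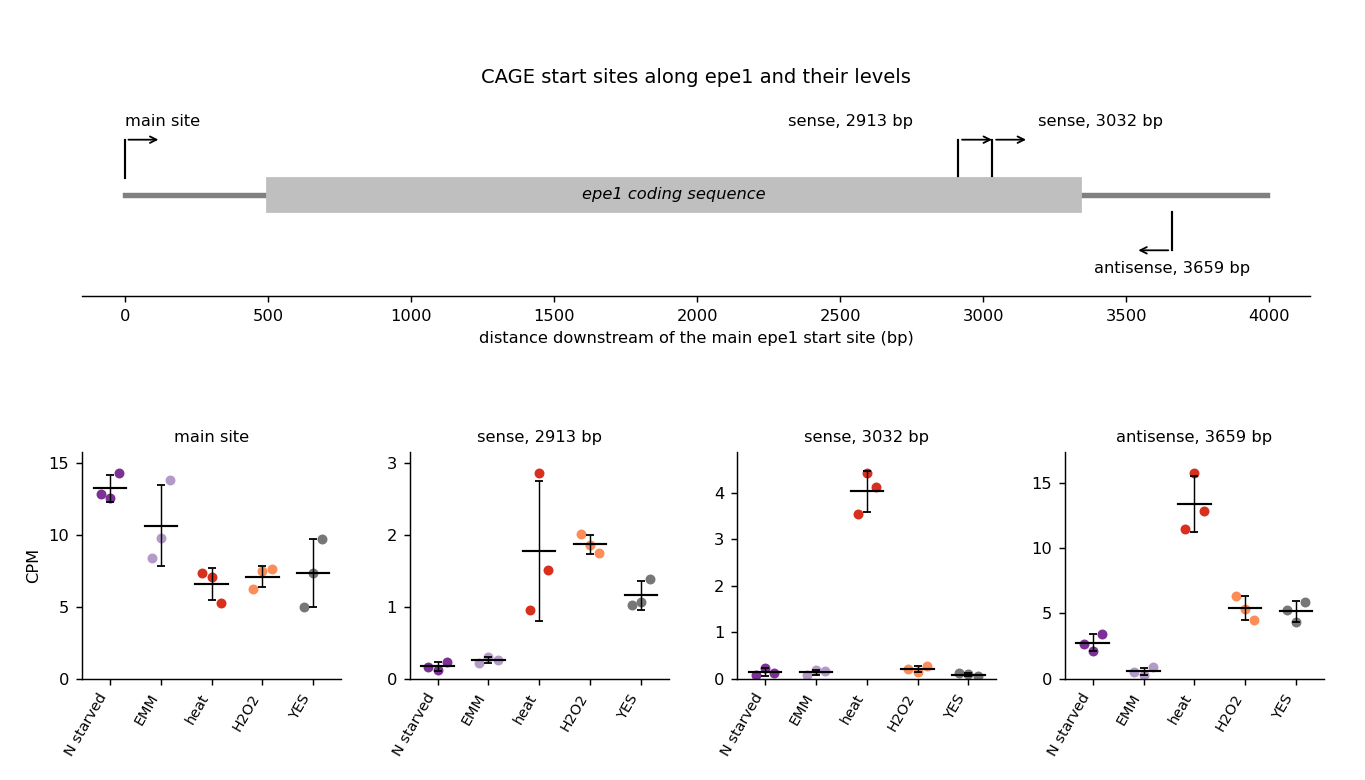
Top, the epe1 transcript (line) and coding sequence (box) against distance from the main start site in bp, with arrows for 3 sense sites and 1 antisense site. Bottom, the level of each site in CPM in the 3 libraries of each group (points, mean and SD): the sense site at 3032 bp is near 0 in each group but heat, where it reaches 3.55 to 4.42 CPM.

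The chp1 gene divided its tags between 2 sites, the main one 486 bp before the start codon and one 27 bp after it, at +513. In EMM libraries the +513 site had 1.17, 1.22 and 1.07 CPM, against 3.88, 4.42 and 5.59 CPM in YES libraries (log2 change −2.02, SE 0.23, adjusted p = 2.78e-06). Its share was 17.4 ± 2.3% in EMM and 51.8 ± 5.0% in YES (usage adjusted p = 0.000101), while the main site did not pass. Nitrogen-starved libraries had 2.44, 1.79 and 2.29 CPM at +513, above the EMM libraries (log2 change 0.92, SE 0.23, adjusted p = 0.00166). In heat and H2O2 the share was 55.3 ± 6.0% and 61.2 ± 13.1%, and neither usage test against YES passed. The peak at +513 lies after the annotated start codon of Chp1. Its cluster, chrI:2213751-2213919, spans that codon, which begins at position 2213859, so some of its tags may start before the codon.

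The swi6 gene used a site at +576 more in heat, although its level did not differ from YES. The peak of this site lies 479 bp into the coding sequence. Its cluster, chrI:1703400-1704020, is 621 bp wide, and its values are summed over that width. The cluster also spans the start codon, which begins at position 1704001. This site had 8.53, 7.89 and 9.53 CPM in heat libraries, against 2.05, 1.50 and 1.59 CPM in YES libraries (log2 change 2.35, SE 0.40, adjusted p = 0.000153). It made up 8.64 ± 0.52% of swi6 tags in heat and 1.72 ± 0.31% in YES. It was below the 10% needed for the usage test and passed with a minimum share of 5% (adjusted p = 1.00e-06). The fall of swi6 in nitrogen starvation was called at the main site (log2 change −1.13, adjusted p = 2.62e-06). The +576 site was lower too, but was not called (log2 change −0.99, adjusted p = 0.0546).

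The clr4 gene used its +593 site, 230 bp into the coding sequence, less in nitrogen starvation. It had 0.31, 0.58 and 0.35 CPM in nitrogen-starved libraries, against 1.53, 1.65 and 1.48 CPM in EMM libraries (log2 change −1.94, SE 0.36, adjusted p = 0.000133), with a share of 1.93 ± 0.65% in nitrogen starvation and 7.78 ± 0.42% in EMM (usage adjusted p = 8.89e-06). For rdp1 the rise in nitrogen starvation was called at the −312 site, with 17.1, 18.3 and 13.7 CPM in nitrogen-starved libraries against 10.8, 9.82 and 8.59 CPM in EMM libraries (log2 change 0.75, SE 0.17, adjusted p = 0.000764), and not at the main site (log2 change 0.36, adjusted p = 0.0821), although library totals alone called the main site too (log2 change 0.85, adjusted p = 0.000171). The −312 site was lower in EMM than in YES (log2 change −0.74, adjusted p = 0.00532). It was higher in heat than in H2O2 (log2 change 0.62, adjusted p = 0.0102), but not called there by library totals alone (log2 change 0.42, adjusted p = 0.0683). The rdp1 main site was also higher in heat than in H2O2 (log2 change 0.79, SE 0.18, adjusted p = 0.00265). The rdp1 +386 site had 35, 27 and 36 tags in nitrogen-starved libraries, against 0, 2 and 2 tags in EMM libraries. The ratio of summed tags was 18.2 (95% exact interval 6.89 to 68.2, counting error only), and edgeR's fitted log2 change was 4.05 (SE 0.64, adjusted p = 2.24e-05). The sir2 site at +2014 rose in nitrogen starvation (log2 change 1.03, adjusted p = 0.0168) but held only 2.96 ± 0.50% of sir2 tags there. The fall of sir2 in heat was at the main site (log2 change −1.59, adjusted p = 8.59e-07).

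On the opposite strand, 6 clusters peaked inside 4 of the genes: 3 in clr4 and 1 each in epe1, sir2 and rdp1. Of these, 3 were called in nitrogen starvation, 2 in heat against YES, 1 in H2O2 against YES, 2 in EMM against YES and 1 in heat against H2O2, beside the cluster percentages given above. The antisense cluster over epe1, at chrIII:1431111-1431583 on the plus strand, belongs by its counts to the noncoding RNA gene SPNCRNA.67. It had 2.64, 2.14 and 3.45 CPM in nitrogen-starved libraries, against 0.51, 0.31 and 0.87 CPM in EMM libraries (log2 change 2.25, SE 0.31, adjusted p = 5.79e-06). It had 11.5, 15.8 and 12.9 CPM in heat libraries, against 5.25, 4.33 and 5.90 CPM in YES libraries (log2 change 1.37, SE 0.24, adjusted p = 0.000194). EMM libraries were also below YES libraries (log2 change −3.15, SE 0.31, adjusted p = 5.64e-07). The 3 heat libraries thus had more antisense tags in this window than tags at the main epe1 site, and the EMM libraries had fewer.

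Over clr4, the antisense cluster at chrII:454092-454220, whose tags belong to the count of the neighbouring meiosis gene meu6, lies at the 3′ end of the transcript, 4249 bp from its start. It had 2.17, 3.59 and 2.40 CPM in nitrogen-starved libraries, against 11.0, 10.4 and 6.54 CPM in EMM libraries (log2 change −1.79, SE 0.25, adjusted p = 5.08e-06). It also fell in heat (log2 change −1.03, adjusted p = 0.00224) and in H2O2 (log2 change −1.01, adjusted p = 0.00481) against the same YES libraries. The other 2 antisense clusters over clr4 were not called in any of the 5 comparisons, although library totals alone called both in heat (adjusted p = 0.0330 and 0.0480) and 1 of them in EMM against YES (adjusted p = 0.0369). The antisense cluster over rdp1 had 46, 23 and 81 tags in nitrogen-starved libraries, against 0, 6 and 8 tags in EMM libraries (log2 change 2.90, SE 0.53, adjusted p = 0.000107), in the condition in which rdp1 sense tags also rose. The one over sir2 had 2.04, 2.50 and 2.20 CPM in EMM libraries, against 3.88, 4.95 and 4.56 CPM in YES libraries (log2 change −0.99, SE 0.24, adjusted p = 0.00710), and was not called in heat, where sir2 fell.

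The 300 bases around each main start, 250 before the peak and 50 from it on, were searched on both strands for 7 motifs in 5875 genes. The heat shock element core GAANNTTC was in 11.1% of all windows and in those of epe1, ago1 and rdp1. Its first base lay at −168 bp in epe1, −157 bp in ago1 and −188 bp in rdp1, and neither sir2 nor tas3, the genes called in heat, held these letters in the window. TATAAA was in 46.0% of all windows and in those of clr4 and ago1. The Atf1-Pcr1 core TGACGT (6.74% of windows), the Ste11 box TTCTTTGTT (2.09%), the MBF box ACGCGT (3.06%), the Pap1 site TTACGTAA (0.528%) and the forkhead site GTAAACA (15.5%) were in none of the 10. A match is a description of letters, not of binding.

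For each gene, the 3 genes with the most similar log2 CPM over the 15 libraries were taken from 5679 genes with a mean of at least 1 CPM. The points share libraries and their scaling, and no p is attached. The swi6 pattern was closest to rps102 (r = 0.984), tae1 (r = 0.984) and rpl1602 (r = 0.982), of which rps102 and rpl1602 encode ribosomal proteins. The clr3 pattern was closest to osh41 (r = 0.935), the translation initiation factor gene tif1 (r = 0.932) and the ribosomal protein gene rpl801 (r = 0.926). The sir2 pattern was closest to mug100 (r = 0.965), ppk13 (r = 0.957) and mtl1 (r = 0.949), and mtl1 is itself on the list of other heterochromatin genes below. The tas3 pattern was closest to pck1 (r = 0.971), ubc6 (r = 0.967) and the noncoding RNA SPNCRNA.1181 (r = 0.964), and the r between sir2 and tas3 was −0.93.

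For the others the likeness was weaker. The dcr1 pattern was closest to the transcription factor gene phx1 (r = 0.917), dnf2 (r = 0.915) and pof7 (r = 0.877). The rdp1 pattern was closest to the autophagy gene atg38 (r = 0.893), cwf7 (r = 0.882) and abz2 (r = 0.834). The ago1 pattern was closest to ykt6 (r = 0.904), ssp1 (r = 0.900) and sec5 (r = 0.881), and the epe1 pattern to coq8 (r = 0.888), SPBP4H10.19c (r = 0.872) and mug51 (r = 0.857). The clr4 pattern was closest to pex32 (r = 0.841), raf2 (r = 0.828) and scp1 (r = 0.814), where raf2 encodes a subunit of the Clr4 complex. For chp1 the closest were SPAC1071.13 (r = 0.777), SPNCRNA.636 (r = 0.762) and mug126 (r = 0.759).

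A list of 53 further genes of silencing and RNAi was set beside the 10, of which 52 had counts and chp2 was not analysed here. In nitrogen starvation 26 rose and 10 fell, against 35.7% and 32.9% of all genes, with a median log2 change of 0.33 (0.04 over all genes). By library totals alone the split was 38 higher and 6 lower, against 50.6% and 18.7% of all genes. In heat against YES 8 rose and 10 fell, against 22.2% and 20.1% of all genes (6 and 19 by library totals alone, against 16.8% and 29% of all genes), in H2O2 against YES 2 rose and 5 fell, against 11.3% and 8.78%, and in EMM against YES 1 rose and 1 fell, against 5.95% and 7.24%.

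The subunits that work directly with the 10 genes moved unevenly in nitrogen starvation. In CLRC, the ubiquitin ligase complex that holds Clr4, rik1 and stc1, whose product links CLRC to RITS, rose by 0.68 and 0.42 on the log2 scale, while raf2 and cul4 did not pass. In SHREC, where clr3 fell, clr1 rose (log2 change 1.44, adjusted p = 2.18e-06) and the remodeller gene mit1 rose (log2 change 1.18, adjusted p = 0.000370), whereas clr2 fell (log2 change −0.66, adjusted p = 0.00434; −0.20 and not called by library totals alone). The partners of Rdp1 in RDRC, hrr1 and cid12, rose with rdp1 (log2 changes 0.70 and 0.31). The partners of Ago1 in ARC, arb1 and arb2, rose (log2 changes 0.58 and 1.13) where ago1 was not called, although some alternatives called ago1 too. In heat, cul4 had 25.2, 24.1 and 25.8 CPM in heat libraries against 16.2, 12.2 and 12.7 CPM in YES libraries (log2 change 0.88, SE 0.15, adjusted p = 0.000182), stc1 rose by 0.66 (adjusted p = 0.000435), and none of the 7 SHREC, ARC and RDRC partners passed.

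**Figure D5:**
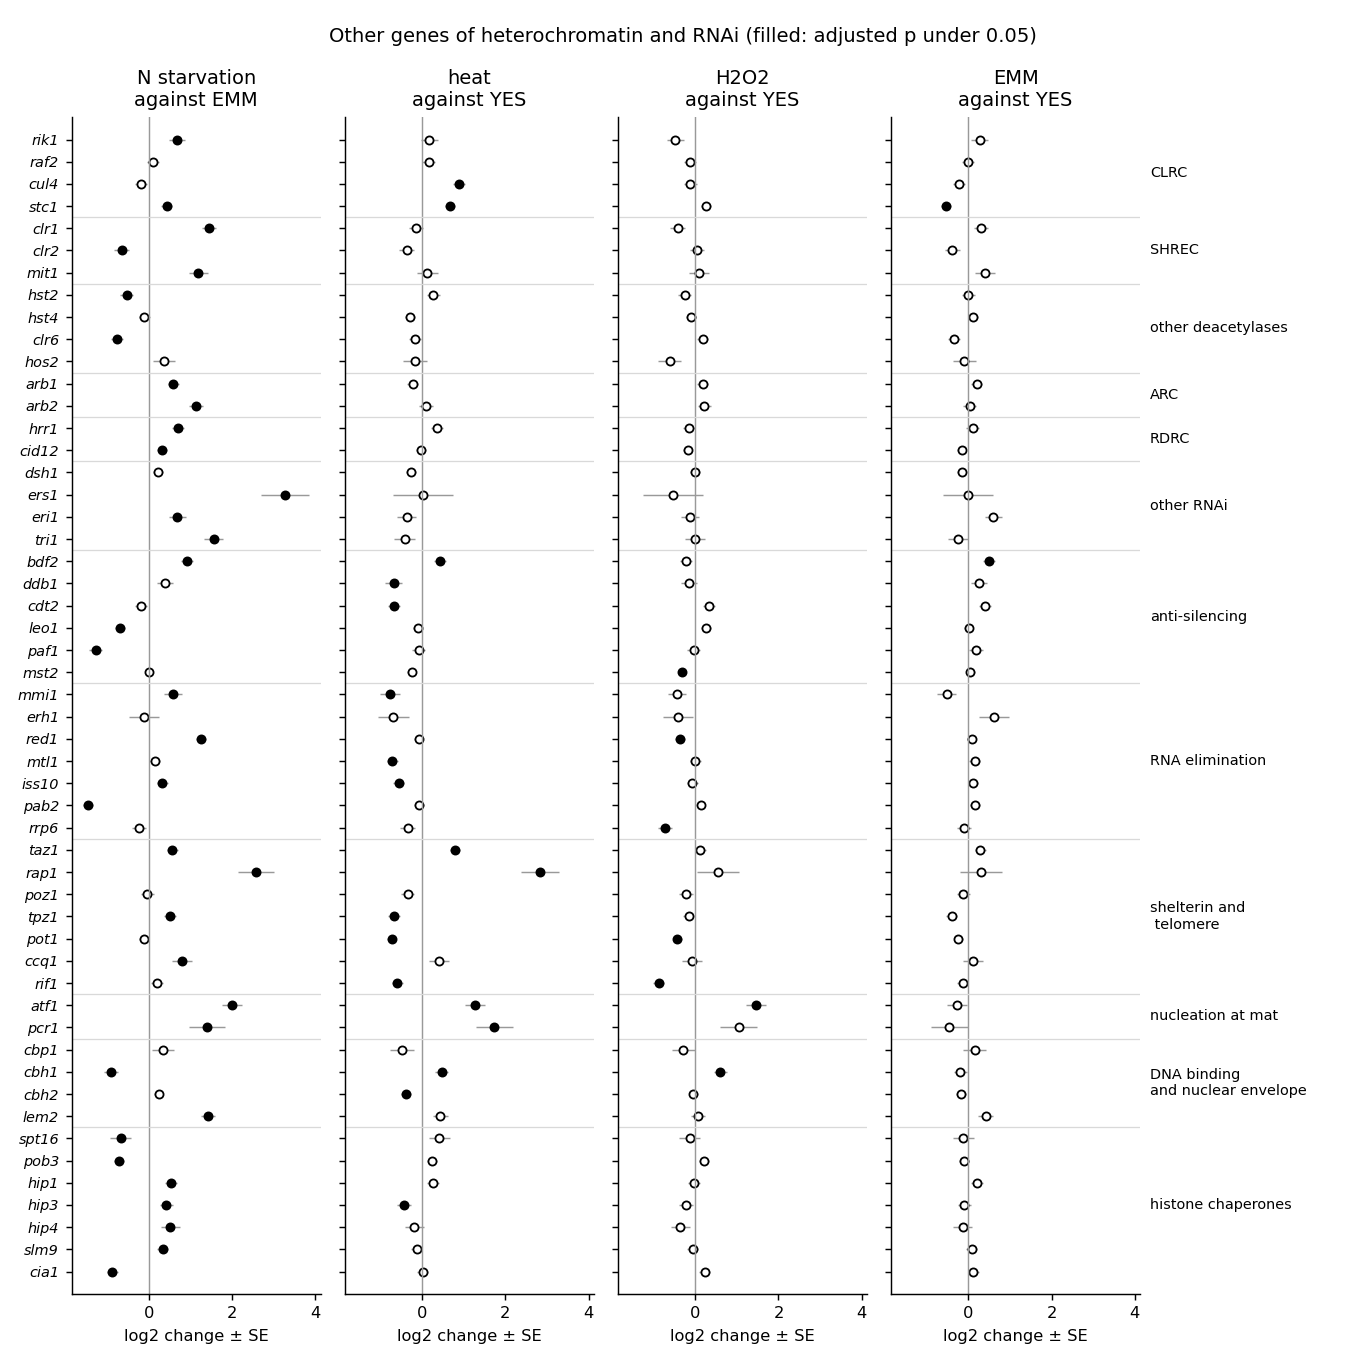
Fitted log2 change (horizontal axis, with its SE) of 52 further silencing and RNAi genes, grouped by complex or class, in 4 comparisons, filled where the adjusted p was under 0.05. Nitrogen starvation has 26 filled points above 0 and 10 below, heat 8 and 10, H2O2 2 and 5, and EMM against YES 1 and 1.

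The genes of the list called with a log2 change of at least 1 in either direction in a stress are named here. Among them were the partners clr1, mit1 and arb2. The share of all genes that meet this rule was not computed. The RNAi gene ers1 had 2.62, 5.38 and 20.3 CPM in nitrogen-starved libraries, against 1.07, 0.82 and 1.05 CPM in EMM libraries (log2 change 3.27, SE 0.59, adjusted p = 0.000168), with a wide spread among the nitrogen-starved libraries. The telomere gene rap1 had 7.74, 6.22 and 9.40 CPM in heat libraries, against 1.39, 1.25 and 0.78 CPM in YES libraries (log2 change 2.83, SE 0.47, adjusted p = 0.000171), and 3.64, 9.83 and 10.6 CPM in nitrogen-starved libraries, against 0.64, 1.98 and 1.34 CPM in EMM libraries (log2 change 2.57, adjusted p = 9.05e-05). The transcription factor gene atf1, whose product also nucleates heterochromatin at the mating-type region, rose in nitrogen starvation (log2 change 1.99), heat (1.27) and H2O2 (1.46), and its partner pcr1 rose in heat (log2 change 1.73, adjusted p = 0.00554). In nitrogen starvation pcr1 was at 19.1, 20.0 and 85.2 CPM, against 19.4, 12.8 and 15.4 CPM in EMM libraries, which overlapped (log2 change 1.39, adjusted p = 0.0115).

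In nitrogen starvation the small-RNA trimming gene tri1 rose (log2 change 1.56, adjusted p = 2.83e-05), as did the inner nuclear membrane gene lem2 (log2 change 1.42, adjusted p = 5.00e-06) and red1, which acts in the elimination of meiotic transcripts (log2 change 1.25, adjusted p = 1.92e-07). The poly(A)-binding protein gene pab2 fell to 20.7, 17.8 and 20.1 CPM in nitrogen-starved libraries, against 49.5, 54.8 and 57.1 CPM in EMM libraries (log2 change −1.46, SE 0.12, adjusted p = 7.73e-08). The Paf1 complex gene paf1, whose product opposes small-RNA silencing, fell too (log2 change −1.28, SE 0.16, adjusted p = 4.90e-06). Both kept their direction and their call by library totals alone.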

How the data were processed

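Per the labels, CAGE libraries came from total RNA of 15 cultures in 5 groups. The authors deposited tag counts per gene (5886) and per start-site cluster (13003), with 0 unmatched columns, and log2 values, which the gene-level alternative used; CPM here were computed from the deposited counts. The submitters' processing notes name CASAVA 1.6, Bowtie 0.12.7 and ASM294v2. The deposited cluster positions were checked against ASM294v3: a pyrimidine-purine step stood at 85.3%, 84.7% and 85.3% of the peaks on chromosomes I, II and III, and at 4.08% or less of them after a shift of 1 bp, so sequences were read from that build. A cluster belongs to a gene where the counts of neighbouring clusters sum to the gene's in every library (5875 genes). The first 27 bases of each main site had no near copy (0 places within 2 mismatches).

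All 15 libraries entered 1 fit by group in edgeR 4.0.16 (R 4.3.3; TMM, filterByExpr, robust quasi-likelihood, Benjamini-Hochberg, threshold 0.05; the filter removed no gene), and usage was tested with diffSpliceDGE and Simes' method. The gene test was tested on simulated data before use. Alternatives were other scalings, filters, a minimum change, DESeq2 1.42.0, limma 3.58.1, a replicate block and leaving out each library. The replicate numbers do not pair the samples, and p-values measure the spread between the libraries. The members, lists and tests were chosen with earlier results of these data known. Named were the 10 members, partners in their complexes, up to 12 list genes with a called log2 change of at least 1 in a stress, and the 3 most similar genes by Pearson r. A motif table by annotated start was not used here; windows at the main peak took its place. A gene of the planned list is not reported here. The CENP-B gene written abp1 in the plan is listed as cbp1. Intervals and floors reflect counting error alone, and the labels name no molecular identifiers.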

Additional observations from a re-analysis of the deposited data

Results flagged for a closer look

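In 5 cases the response of a gene to nitrogen starvation differed from its response to a short stress by the edgeR test of the difference itself. For heat these were 3 of the 10 genes, against 57.0% of all genes. For H2O2 they were 2 of the 10, against 54.4% of all genes. For swi6 the log2 change in nitrogen starvation against EMM minus that in heat against YES was −1.12 (SE 0.19, adjusted p = 0.000156), and minus that in H2O2 against YES it was −0.95 (SE 0.19, adjusted p = 0.000661). All 3 nitrogen-starved libraries were below all 3 EMM libraries, while heat and H2O2 libraries overlapped the YES libraries. For sir2 the difference between the nitrogen starvation and heat effects was 1.75 (SE 0.23, adjusted p = 1.41e-05), with all 3 heat libraries below all 3 YES libraries. For tas3 it was −1.18 (SE 0.18, adjusted p = 7.94e-05), with all 3 heat libraries above all 3 YES libraries. For rdp1 the difference between the nitrogen starvation and H2O2 effects was 0.86 (SE 0.22, adjusted p = 0.00478), with all 3 nitrogen-starved libraries above all 3 EMM libraries and all 3 H2O2 libraries below all 3 YES libraries. Heat and H2O2 share the YES libraries, so the 2 swi6 differences are not independent.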

How the results depend on the processing

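Of the 10 genes, requiring a log2 change of 1 left 0 called in nitrogen starvation, against 4 without that minimum, and 1 in heat against H2O2, against 4. Over all genes that setting called 1438 in nitrogen starvation (4039 without it), 494 in heat (2487), 183 in H2O2 (1180), 176 in EMM against YES (776) and 309 in heat against H2O2 (1629), which follows from the stricter test. Library totals alone called 9 of the 10 genes in nitrogen starvation (69.3% of all genes), 7 for the difference between the nitrogen starvation and heat effects (63.4%), against 3 with TMM, and 8 for that between nitrogen starvation and H2O2 (56.4%), against 2. They called 4 antisense clusters in heat (36.9% of all clusters) and 4 in EMM against YES (14%), against 2 each with TMM. With them the called genes were higher in 73% of cases in nitrogen starvation (52% with TMM), 36.7% in heat (52.4%) and 31.6% in heat against H2O2 (56.7%). In heat, limma on the deposited log2 values called 4 of the 10 genes (44.3% of all genes), against 2. Leaving out 1 library at a time gave 2 to 4 called genes in heat, 4 of them without heat library 2 (37.5% of all genes), and 2 to 4 for the difference between the nitrogen starvation and H2O2 effects, 4 of them without nitrogen-starved library 3 (52.2%). Apart from the minimum change, the cause of these shifts was not tested. No called result changed direction under the alternatives run.

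With replicate number as a block, the 10 genes had 4 calls in nitrogen starvation, 3 in heat, 0 in H2O2, 0 in EMM against YES and 3 in heat against H2O2, and all genes had 3978, 2402, 1102, 716 and 1522. The block added epe1 in heat (adjusted p = 0.0369) and lost clr4 in heat against H2O2 (adjusted p = 0.0629). Same-numbered libraries did not deviate together throughout: r was 0.0676 to 0.307 between nitrogen-starved and EMM libraries but −0.205 to −0.12 between heat and YES libraries and −0.221 to 0.112 between H2O2 and YES libraries.

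Limits come from 3 libraries per group and from depth. The genes epe1 and chp1 and the secondary and antisense sites held few tags, so their values carry more counting error than those of the higher genes.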
